A study of Mus musculus with 4 samples.

Results

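Mature neutrophils were taken from single-cell RNA libraries of mouse lungs carrying small cell lung cancer, and 629 barcodes met their definition among 14411 cells. A cell counted as one when at least 3% of its unique molecular identifiers (UMIs, each standing for 1 captured mRNA molecule) came from S100a8 and S100a9, at least 2 UMIs came from Csf3r, Cxcr2, G0s2 and Stfa2l1 together, and fewer than 5 came from the granule genes Camp, Ngp and Ltf. It also had at least 500 UMIs, at least 300 detected genes and at most 10% mitochondrial UMIs. The levels of these 9 genes therefore chose the cells and are given below as descriptions only. Tumour cells had been placed orthotopically in the lung and followed by MRI. The whole perfused lung was digested with collagenase D and DNase I, live cells were sorted by exclusion of the dye DAPI, and libraries were made with a 10x Genomics droplet kit that reads the 3' end of mRNA. The control mice received vehicle with isotype IgG, another group 200 µg per mouse of the anti-PD-1 antibody 29F.1A12 on Mondays, Wednesdays and Fridays, and a further one 10 mg/kg of YKL-5-124, an inhibitor of the kinase CDK7, on each weekday. The last group, called the combination here, received both agents. Each group was 1 library. The sources used here give neither the mouse strain and tumour cell line nor the number of animals per library. No value below therefore has a replicate error, treatments were not tested, and a difference between treatments cannot be told apart from one between libraries or animals.

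Neutrophils are short-lived phagocytes made in the bone marrow under the control of granulocyte colony-stimulating factor. During maturation they make primary granule proteins first, such as myeloperoxidase and elastase, then secondary and gelatinase granule proteins, such as lactoferrin, the cathelicidin Camp and gelatinase B. As they complete maturation they acquire Cxcr2, the receptor through which chemokines such as Cxcl2 draw them into blood and tissue. The inhibitor's target, CDK7, is a subunit of the transcription factor TFIIH and activates other cyclin-dependent kinases. In lung tumours, neutrophils are a source of interleukin 1 and of chemokines, and subsets of them have been described as restraining T cells.

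The members were 76 cells in control, 68 under anti-PD-1, 350 under YKL-5-124 and 135 in the combination. Together they held 77756 UMIs in control, 77935 under anti-PD-1, 515769 under YKL-5-124 and 181869 in the combination. One UMI in these sums corresponded to 12.9, 12.8, 1.94 and 5.50 CPM (UMIs scaled to a total of 1e6 per library of members) in the same order, so low levels were read far more finely under YKL-5-124 than in control or under anti-PD-1. The cells themselves also differed in depth, with a median of 956.5 UMIs in control, 1015 under anti-PD-1, 1344.5 under YKL-5-124 and 1288 in the combination. The median number of genes per cell was 427, 442.5, 562 and 553. The libraries shared many barcodes: between each pair of them, 469 to 537 kept cells had the same barcode sequence out of the same deposited barcode list. Why they were shared was not tested. Of the 629 members, 14 had a barcode kept in another library, and 0 barcodes were a mature neutrophil in both libraries of a pair. Without all cells whose barcode was kept elsewhere, 74, 66, 343 and 132 members remained, and their share was 3.75 times control under YKL-5-124 and 1.51 times in the combination. Single genes that change are given with their values below.

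S100a8 and S100a9, the subunits of calprotectin, took a median of 9.92% of the UMIs of a member in control, 8.68% under anti-PD-1, 9.63% under YKL-5-124 and 9.74% in the combination. The threshold of 3% lay far below these medians. Cells between 3 and 4% numbered 4, 8, 15 and 6 in the 4 libraries, listed as before from control to the combination, and cells between 2 and 3%, just outside, numbered 7, 8, 18 and 14. The 4 marker genes gave a median of 14.5, 11, 15 and 14 UMIs per cell against the threshold of 2. Members with exactly 2 marker UMIs numbered 0, 6, 10 and 1, and otherwise fitting cells with 1 numbered 1, 4, 2 and 2. The edge that decided most cells was the granule limit under YKL-5-124. There 31 members had 3 or 4 granule UMIs, 43 cells just outside had 5 to 9, and 267 had 10 or more. The corresponding cells in the combination were 5, 0 and 10, and control and anti-PD-1 had none on either side. Within 100 UMIs of the depth threshold, 2, 4, 3 and 1 members lay above it, and 10, 4, 0 and 0 otherwise fitting cells below it.

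**Figure D1:**
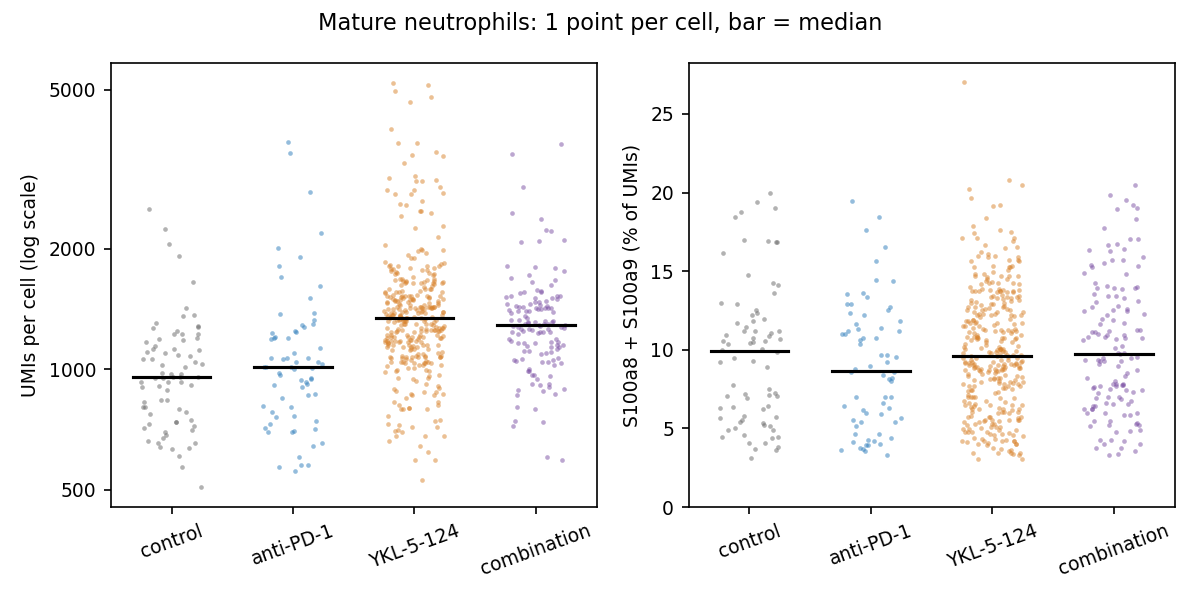
Each point is 1 mature neutrophil, by library. The left axis is UMIs per cell on a log scale, the right axis is the percentage of UMIs from S100a8 and S100a9, and bars mark medians. Median depth runs from 956.5 UMIs in control to 1344.5 under YKL-5-124, while the S100 medians lie between 8.68 and 9.92%.

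Mature neutrophils made up 2.18% of cells in control (76 of 3481, 95% exact binomial interval 1.72 to 2.73%) and 2.49% under anti-PD-1 (68 of 2736, 1.94 to 3.14%). They made up 8.43% under YKL-5-124 (350 of 4152, 7.60 to 9.32%) and 3.34% in the combination (135 of 4042, 2.81 to 3.94%). All intervals here cover counting error only. The YKL-5-124 library thus had 3.86 times the share of control (interval 3.01 to 5.02), and the combination had 1.53 times that share (1.15 to 2.05). The combination had 0.396 times the share of YKL-5-124 (0.322 to 0.485). The anti-PD-1 and control shares differed by less than their counting error, with a ratio of 1.14 (0.808 to 1.60), as did the combination and anti-PD-1, with a ratio of 1.34 (0.997 to 1.83).

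The size of the difference moved with cell depth. Among cells with at least 1000 UMIs, members numbered 34 in control, 37 under anti-PD-1, 299 under YKL-5-124 and 113 in the combination, or 1.11, 1.59, 7.95 and 3.11% of cells. On these deeper cells the ratio to control was 7.19 under YKL-5-124 and 2.81 in the combination, and the ratio of the combination to anti-PD-1 was 1.95. With limits lowered to 250 UMIs and 150 genes, members numbered 97, 79, 353 and 136 from control to the combination. These were 2.33, 2.27, 7.46 and 2.88% of cells, so both libraries given YKL-5-124 lay nearer to control than in the main values. A share is relative to the other cells sorted, so these values do not give numbers of neutrophils per lung.

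The other myeloid classes had shares of their own. Granule-rich neutrophils, which met the same depth and S100 limits but held 5 or more UMIs of Camp, Ngp and Ltf, numbered 0 in control and 0 under anti-PD-1, which allow shares of up to 0.0862% and 0.110%. They numbered 311 under YKL-5-124 (7.49% of cells) and 10 in the combination (0.247%). Monocytes, taken by their own markers, made up 4.25, 5.85, 10.7 and 12.02% of cells in that order. Set against these 3 myeloid classes together, mature neutrophils were 33.9% in control (27.8 to 40.5%), 29.8% under anti-PD-1 (24.0 to 36.2%), 31.7% under YKL-5-124 (29.0 to 34.5%) and 21.4% in the combination (18.3 to 24.8%). Within the myeloid cells, the YKL-5-124 share was thus 0.934 times that of control (0.727 to 1.21), whereas the combination share was 0.631 times that of control (0.473 to 0.847). Of cells rich in S100a8 and S100a9, mature neutrophils were 97.4% in control, 94.4% under anti-PD-1, 52.8% under YKL-5-124 and 91.8% in the combination.

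**Figure D2:**
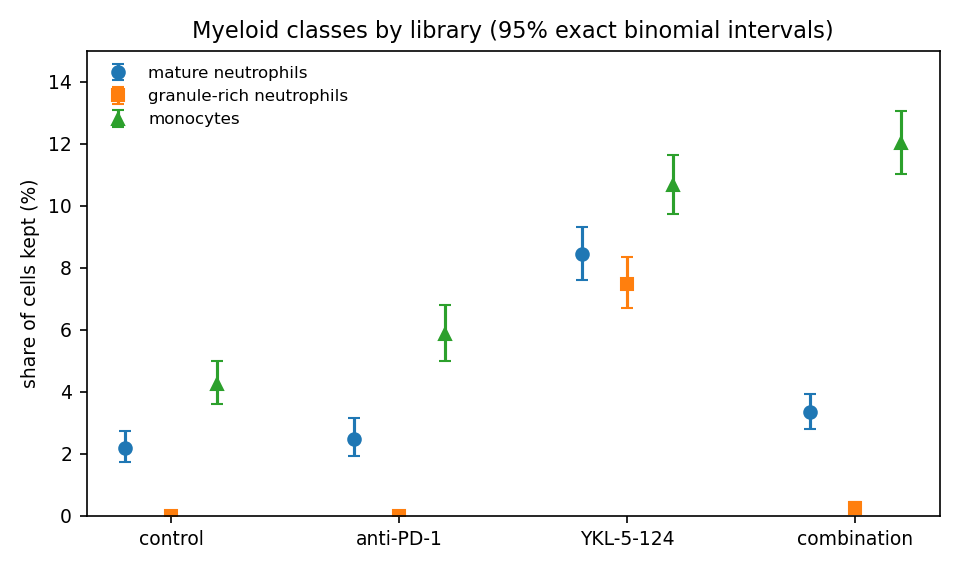
Share of all cells kept, in percent, for mature neutrophils, granule-rich neutrophils and monocytes in each library, with 95% exact binomial intervals. Mature neutrophils stand at 8.43% under YKL-5-124 and at 2.18 to 3.34% in the other 3 libraries, and granule-rich neutrophils at 7.49% under YKL-5-124 and at most 0.247% elsewhere.

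Outside the rule, the nuclear RNA Malat1 was the most abundant transcript, at 47628 to 61616 CPM, followed by the actin-binding Tmsb4x, at 19557 to 23291 CPM. Inflammatory transcripts came close behind. Cxcl2, a chemokine that attracts neutrophils, stood at 19188 CPM in control, 17104 under anti-PD-1, 16369.7 under YKL-5-124 and 16391 in the combination. Il1b, the precursor of interleukin 1 beta, stood at 14378, 14012, 11561 and 13026 CPM in the same order. Both were high in all 4 libraries, and neither passed 2-fold in any comparison. Il1b was found in 97.0 to 98.7% of members after each cell was thinned to 500 UMIs, against 0.616 to 1.43% of B and T cells, and in 98.5 to 100% of members before thinning. Further markers of the lineage that the rule did not use were also present throughout. Hdc, which makes histamine, had 2508 to 2926 CPM, the decoy receptor Il1r2 had 1591 to 1916 CPM, and Mxd1, a transcriptional repressor of the Myc network, had 1476 to 2212 CPM. Slpi, a protease inhibitor that protects tissue from neutrophil elastase, had 6185 to 7832 CPM. Osm, the cytokine oncostatin M, had 1119 to 1265 CPM, and Nfkbia, the inhibitor of NF-kB that NF-kB itself induces, had 4428 to 4718 CPM.

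Of the primary granule genes, Elane and Mpo were near 0, while the summed level of their list was not. Neither exceeded 1.94 CPM, or 1 UMI, in any library. The 13 genes of that list together stood at 7279 CPM in control, 7006 under anti-PD-1, 6383 under YKL-5-124 and 6873 in the combination. Of these 13, 4, 7, 12 and 8 were detected, in the same order. Such a sum can rest on few of its genes, so it does not show that primary granule genes were expressed as a group. Markers of other lineages were detected at low levels. Mki67, a marker of dividing cells, was listed at 0 in control and anti-PD-1 and stood at 5.82 and 16.5 CPM under YKL-5-124 and the combination. Of 15 marker genes of eosinophils, basophils and mast cells, 12 had no UMI in any member. Members that carried at least 3 UMIs of the defining markers of another cell type numbered 0 in control, 2 under anti-PD-1 (both B cell markers), 9 under YKL-5-124 and 0 in the combination. Summed over 20 marker genes, monocyte transcripts stood at 2148, 1925, 2088 and 1853 CPM, which was 1.37, 1.05, 1.04 and 0.926 times their level in free RNA, measured in barcodes with 10 to 100 UMIs.

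Set against monocytes of the same library, the genes that were highest in mature neutrophils apart from the rule's own were again granulocyte genes. Between 17.9 and 20.2% of the genes compared were at least 2-fold higher in mature neutrophils and 27.7 to 29.8% at least 2-fold lower, on the log2(CPM + 50) scale used for all fold changes here. Retnlg, a secreted resistin-like protein of granulocytes, was higher by 6.32 to 7.34 log2 units over the 4 libraries. Hdc was higher by 4.84 to 5.15, Wfdc21 by 4.66 to 5.27, Lrg1 by 4.20 to 4.79 and Cxcl2 by 3.96 to 4.29 log2 units. The genes furthest below monocytes included the antigen-presenting class II genes H2-Aa, H2-Ab1 and H2-Eb1, the proteases Ctsc and Ctss, and Crip1, Plac8 and Lgals1. The cells had been chosen on genes of the same profile, so these differences describe the class and test nothing.

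The mature cells were next compared with the granule-rich neutrophils of the YKL-5-124 library, by their number of granule UMIs. Of the 350 mature cells in that library, 212 had no Camp, Ngp or Ltf UMI (60.6%), compared with 97.4% in control, 97.1% under anti-PD-1 and 87.4% in the combination. The other 138 had 1 to 4. Median depth was 1291.5 UMIs at 0 granule UMIs, 1420.5 at 1 to 4 and 2360 in the granule-rich cells, so a cell with more UMIs also had more chances to hold a granule UMI.

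Several granule and early genes were higher at each step across these 3 groups. Retnlg stood at 13342 CPM in cells with no granule UMI, 24885 with 1 to 4 and 39236 in granule-rich cells. Lcn2, the iron-binding lipocalin of secondary and gelatinase granules, went from 1418 to 2342 and 4992 CPM. Mmp8, neutrophil collagenase, went from 894 to 1180.4 and 2524 CPM. Ly6g, the antigen by which mouse neutrophils are usually recognised, went from 90.1 to 167 and 489.7 CPM, and Cd177, a surface protein of the same cells, from 83.4 to 120.4 and 909.9 CPM. These 5 genes had the same order, lowest in the cells with no granule UMI and highest in the granule-rich cells. The groups were themselves cut on granule genes, so the order of genes across them, here and below, describes the groups and tests nothing. Chil3, a chitinase-like protein of immature neutrophils, was 13.3, 46.3 and 1568 CPM, with almost all of the difference at the last step.

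Inflammatory and late genes were lowest in the granule-rich cells. Il1b stood at 12214, 10656 and 3715 CPM over the same 3 groups, and Wfdc17, a secreted whey acidic protein, at 4691, 3796 and 1104 CPM. Ccrl2, a receptor that presents the chemoattractant chemerin, stood at 1011, 731 and 300.2 CPM. Csf3r, the receptor of granulocyte colony-stimulating factor and a gene of the rule, stood at 1088, 1060 and 343 CPM. Csf3r and Il1b thus differed little between the first 2 groups and by more than 2-fold between the second and the third. Over the 1122 genes compared between mature and granule-rich cells of this library, 4.46% were at least 2-fold higher and 2.85% at least 2-fold lower in the mature cells. Beside the genes of the rule, the largest differences upward were Ppp1r15a (2.15), a stress-induced phosphatase subunit, Fgl2 (2.07), Wfdc17 (1.92), Ifitm1 (1.75) and Il1b (1.62). The largest downward were Chil3 (-4.39), Serpinb1a (-3.02), an inhibitor of neutrophil proteases, Cd177 (-2.69) and Ifitm6 (-2.22), all as log2 ratios.

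**Figure D3:**
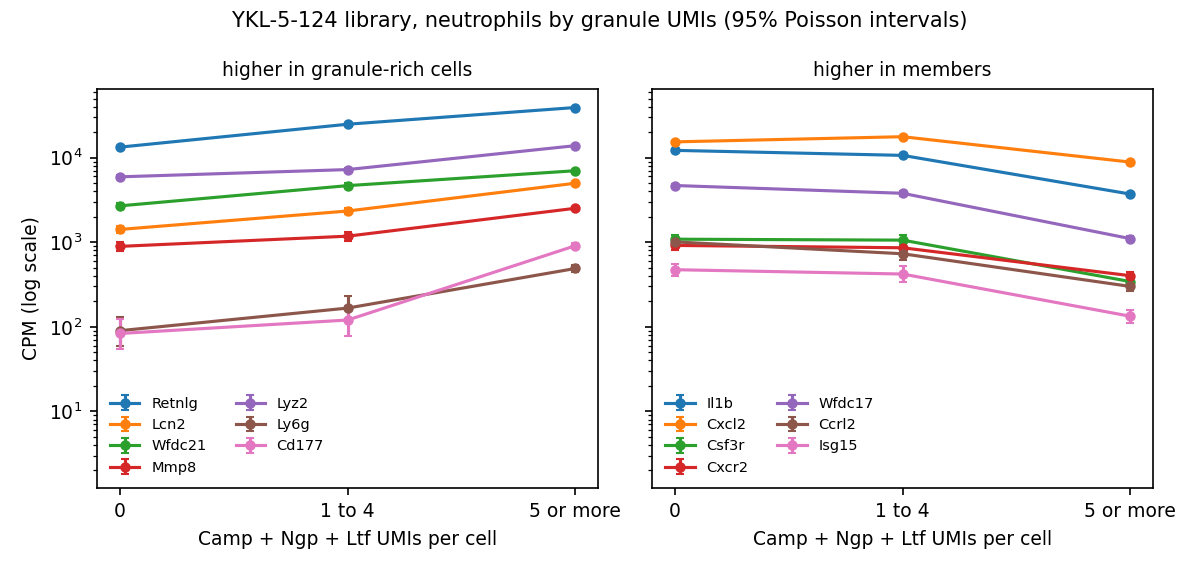
Levels in the YKL-5-124 library, in CPM on a log scale, in neutrophils with 0, 1 to 4 and 5 or more UMIs of Camp, Ngp and Ltf. The first 2 groups are the mature neutrophils, the last the granule-rich ones, and bars are 95% Poisson intervals. Lcn2, a granule gene, goes from 1418 to 4992 CPM, whereas Il1b goes from 12214 to 3715 CPM.

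The genes that set mature neutrophils under YKL-5-124 apart from those of control included some granule genes, the sensing receptors Cd14 and Fpr1 and the stefins Stfa1 and BC100530 upward. Downward they included the interferon-induced Isg15 and Ifi27l2a and the transcription factors Egr1, Jund and Cebpb. Of 1155 genes with a mean of at least 100 CPM over the libraries, 28 were at least 2-fold higher (2.42%) and 15 at least 2-fold lower (1.3%) under YKL-5-124. These calls rest on size alone, with no test, and the median over all these genes was 0.04 on the log2 scale. Every comparison with control below uses the same 76 control cells.

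Of 31 secondary granule genes listed, 15 were measured at 100 CPM, and their median log2 ratio to control was 0.89 under YKL-5-124, against 0.04 over all genes. Without Ngp, which belongs to the rule, the median of the remaining 14 was 0.70, with 4 past 2-fold upward (BC100530, which is also a stefin, Lcn2, Wfdc21 and Ifitm6) and 1 downward (AA467197, of whose 24 control UMIs 14 lay in 1 cell, and whose log2 ratio was -0.87 without the top cells). BC100530 had no UMI in control or under anti-PD-1. It reached a mean of 100 CPM only through the libraries given YKL-5-124, so its upward call followed from the filter and is no support. Both medians include it. Genes of early granulocytes other than granule proteins are on the list too, and Ly6g stood at a log2 ratio of only 0.17. Lcn2 was at 424 CPM in control, 616 under anti-PD-1, 1805 under YKL-5-124 and 1072 in the combination. The YKL-5-124 level was 4.25 times that of control (interval 3.01 to 6.22) and the combination level 2.53 times (1.74 to 3.77). Both treated groups given YKL-5-124 thus lay above the other libraries. After thinning to 500 UMIs, Lcn2 was found in 17.1% of members in control, 25% under anti-PD-1, 50.3% under YKL-5-124 and 38.5% in the combination, against at most 0.571% of B cells and 0.105% of T cells. Unthinned, these were 31.6, 35.3, 77.4 and 58.5% of members, at a median depth in B cells of 1483 to 1633.5 UMIs and in T cells of 2027.5 to 2426. Free RNA also held more Lcn2 under YKL-5-124, at 199.9 CPM against 53.6 in control, 60.1 under anti-PD-1 and 61.7 in the combination.

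Wfdc21, Mmp8 and Ifitm6 had the same order of libraries as Lcn2, and Lyz2 and Retnlg had not. Wfdc21 was at 1376 CPM in control, 1617 under anti-PD-1, 3525 under YKL-5-124 and 2199 in the combination, 2.56 times control under YKL-5-124 (2.11 to 3.14). Mmp8 was at 463, 475, 1014 and 715 CPM, 2.19 times control under YKL-5-124 (1.56 to 3.16). Ifitm6, an interferon-inducible membrane protein also found in immature granulocytes, was at 257, 282, 595 and 451 CPM. In each of these 3 genes the YKL-5-124 library was highest and the combination second. Lyz2, lysozyme, was at 3318, 3618, 6485 and 6703 CPM, 1.96 times control under YKL-5-124 (1.72 to 2.23) and 2.02 times in the combination (1.77 to 2.32), so only the combination passed 2-fold. Retnlg was at 13079, 12498, 18177 and 10755 CPM and did not pass 2-fold in any comparison. Mmp9, gelatinase B, lay the other way, at 759, 706, 485 and 495 CPM, 0.639 times control under YKL-5-124 (0.479 to 0.863), short of 2-fold. Of 9 measured gelatinase and tertiary granule genes, Lcn2 and Mmp8 passed 2-fold upward and none downward, with a median of 0.11.

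Since 138 of the 350 YKL-5-124 cells carried a granule UMI, the comparison was repeated on members with none, where 24 genes were at least 2-fold higher and 14 lower. The log2 ratio of Lcn2 to control over all alternative settings, that one included, lay between 1.72 and 2.06, and that of Stfa1 between 2.43 and 3.23. Not every granule gene kept its difference in members with no granule UMI. There Mmp8 was at 461 CPM in control and 894 under YKL-5-124, short of 2-fold. Retnlg was at 13173.5 and 13342 CPM, nearly the same. Ngp itself stood at 38.6, 12.8, 448 and 170.5 CPM in members, although the rule kept it low, and at 218, 269.8, 1052 and 234 CPM in free RNA. Free RNA under YKL-5-124 also held more of the other genes of this kind, with log2 ratios to control of 1.20 for Wfdc21, 1.00 for Mmp8, 0.98 for Lyz2 and 1.38 for Ifitm6. The part of free RNA in the members' granule transcripts was not tested.

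Among sensing receptors, single genes passed 2-fold and not the lists. Cd14, the co-receptor for bacterial lipopolysaccharide, was at 3755 CPM in control, 3695 under anti-PD-1, 7994 under YKL-5-124 and 4789 in the combination, 2.13 times control under YKL-5-124 (1.89 to 2.41). In free RNA Cd14 was at 148, 154, 417 and 238 CPM, and its part in the members' difference was not tested. It was the 1 gene past 2-fold among 22 measured Fc, lectin and pattern-recognition receptors, whose median was -0.0021. Fpr1, the receptor for bacterial formyl peptides, was at 270.1, 308, 677 and 445 CPM, 2.51 times control under YKL-5-124 (1.61 to 4.10). It was likewise the 1 gene past 2-fold among 8 measured chemoattractant receptors, whose median was -0.18. Cxcr2, by contrast, stood at 1106, 847, 894 and 1067 CPM. Ifngr1, a chain of the interferon gamma receptor, was at 154, 269, 368 and 258 CPM and passed 2-fold under YKL-5-124, at 2.39 times control (1.34 to 4.70).

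The stefins, cytoplasmic inhibitors of cysteine proteases that lie in a cluster on mouse chromosome 16, split within the cluster. Per the GENCODE M21 annotation of GRCm38, Stfa2l1 lies at chr16:36156811-36161953, Gm5483 at chr16:36184212-36188111, Stfa1 at chr16:36276951-36285373, BC100530 at chr16:36359382-36367748 and Stfa2 at chr16:36403992-36408457. Stfa2l1, a gene of the rule, was at 707 CPM in control, 693 under anti-PD-1, 651 under YKL-5-124 and 852 in the combination. Its neighbour Gm5483 was at 720.2, 1078, 1132 and 1424 CPM, below 2-fold throughout. Stfa1 was at 64.3 CPM in control (20.9 to 150.1), 128 under anti-PD-1 (61.5 to 236), 686 under YKL-5-124 (617 to 762) and 643 in the combination (532 to 771). BC100530 had no UMI in control or anti-PD-1, and stood at 459.5 CPM under YKL-5-124 (403 to 522) and 396 in the combination (309.8 to 499). Stfa1 and BC100530 were thus high in both libraries given YKL-5-124 and low or undetected in the others, with no overlap of the intervals. Stfa1 was 10.7 times control under YKL-5-124 (4.53 to 33.1). BC100530 was at least 11.9-fold higher under YKL-5-124 and at least 10.3-fold higher in the combination, against a floor of 3 counts in the control library. Free RNA held at most 10.9 CPM of Stfa1 and 12.6 CPM of BC100530 in any library, far below the members given YKL-5-124.

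Because Stfa2l1 is a gene of the rule, its levels over the libraries are no independent contrast to those of Stfa1. The promoters of Stfa2l1 and Stfa1 are shown only as those of related genes of this cluster. They are RefSeq windows on GRCm38.p6, from 250 bases before to 50 bases after the annotated start, at chr16:36156561-36156860 and chr16:36276898-36277197, both on the plus strand. Capitals mark the letters TTGCNNAA, the core bound by C/EBP factors, which drive granulocyte genes.
Stfa2l1: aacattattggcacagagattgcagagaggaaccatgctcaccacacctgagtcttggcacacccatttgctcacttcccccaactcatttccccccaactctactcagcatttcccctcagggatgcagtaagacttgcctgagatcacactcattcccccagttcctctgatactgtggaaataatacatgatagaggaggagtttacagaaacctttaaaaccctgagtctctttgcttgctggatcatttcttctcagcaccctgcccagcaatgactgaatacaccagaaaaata
Stfa1: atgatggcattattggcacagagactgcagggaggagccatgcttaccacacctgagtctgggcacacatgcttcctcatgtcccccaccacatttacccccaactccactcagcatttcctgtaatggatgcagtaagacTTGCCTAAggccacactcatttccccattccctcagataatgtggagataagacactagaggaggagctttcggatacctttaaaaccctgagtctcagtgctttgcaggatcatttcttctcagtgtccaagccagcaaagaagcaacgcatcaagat
The 2 windows were identical at 244 of 300 aligned positions (81.3%), and those of Stfa2l1 and Stfa2 at 91.7%. The core began 109 bases before the RefSeq start of Stfa1 and was not in the Stfa2l1 window. The GENCODE start of Stfa1, 36276951, lies inside its window and before the core. By that annotation the core is within the gene, and much of the window is transcribed. For Stfa2l1 the RefSeq and GENCODE starts are the same, so the windows are not placed alike on the GENCODE genes. Both strands were searched, and 10.8% of 32851 RefSeq promoter windows of this length hold such a core. It was also in the windows of S100a9, Retnlg and Lcn2, making 4 of the 11 windows examined. The letters GAGGAAGT, bound by PU.1, were in 1 of the 11 and in 3.20% of all windows, and the TATA letters TATAAA in 2 of the 11 and in 13.6% of all. A match is a description of the letters only.

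Stfa1 and BC100530 share 97.1% of the 617 bases of the shorter transcript, so reads could be split between them or shared with BC117090, which had no UMI in any library and shares 95.3% with Stfa1. Their sum is therefore the safer value. It stood at 64.3 CPM in control, 128 under anti-PD-1, 1146 under YKL-5-124 and 1039 in the combination. The sum was 17.8 times control under YKL-5-124 (7.59 to 55.1) and 16.2 times in the combination (6.80 to 50.3). The combination did not differ from YKL-5-124 beyond counting error, at 0.907 times (0.766 to 1.07). These transcripts lay in a minority of cells. A cell with a UMI of either gene was 3 of 76 in control, 5 of 68 under anti-PD-1, 104 of 350 under YKL-5-124 (29.7%) and 38 of 135 in the combination (28.1%). Cells with at least 3 UMIs numbered 0, 1, 62 and 18, and the highest cell held 2, 4, 48 and 24 UMIs. Depth was similar in cells with at least 3 such UMIs and in cells with none, with medians of 1389 and 1306.5 UMIs under YKL-5-124. The granule step did not order these genes. Stfa1 stood at 574 CPM with no granule UMI, 842 with 1 to 4 and 498 in granule-rich cells.

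**Figure D4:**
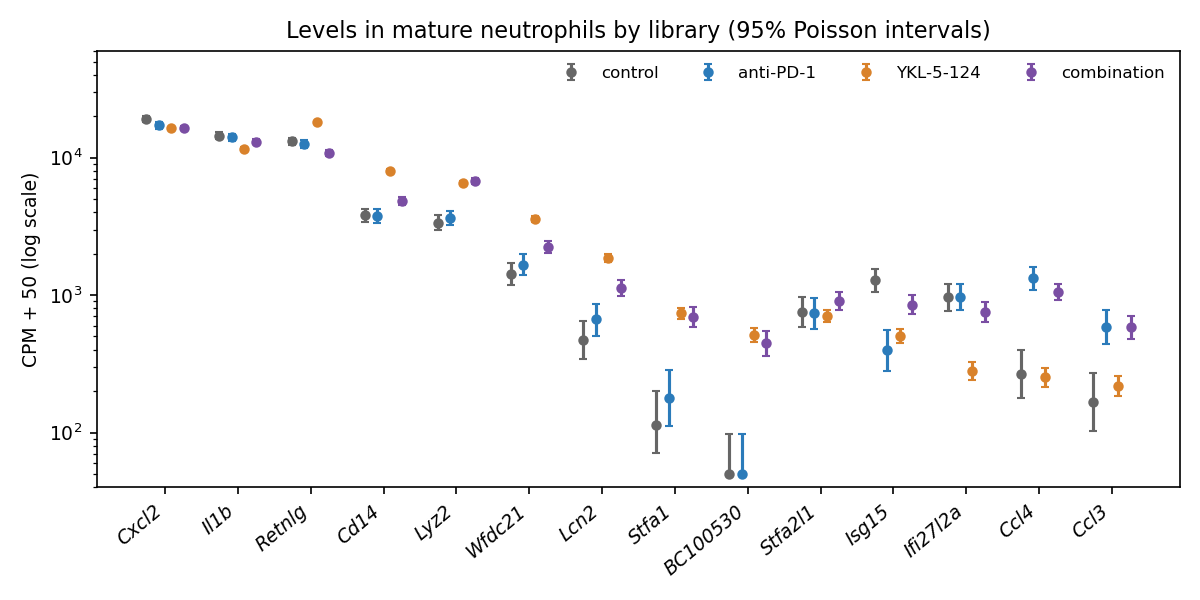
Levels of named genes in mature neutrophils of each library, as CPM + 50 on a log scale, with 95% Poisson intervals. Before the 50 CPM are added, Stfa1 sits at 686 and 643 CPM in the libraries given YKL-5-124 and at 64.3 and 128 CPM in the others, while Isg15 is highest in control at 1235 CPM.

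Of 46 interferon-stimulated genes listed, 16 were measured, with a median log2 ratio of 0.12 under YKL-5-124. Ifitm6 passed 2-fold upward and Isg15 downward. Isg15, a ubiquitin-like protein induced by interferon, was at 1235 CPM in control (1000.1 to 1508), 346 under anti-PD-1 (228 to 504), 452 under YKL-5-124 (396 to 514) and 803 in the combination (678 to 944). The level in control lay above all others, and that in the combination above both single agents. Among cells with at least 1000 UMIs the log2 ratio of Isg15 to control was -0.86 under YKL-5-124 and -0.77 under anti-PD-1, short of 2-fold, against -1.36 and -1.70 over all members. Isg15 was found in 30.3, 10.3, 15.1 and 25.9% of members thinned to 500 UMIs, against 2.72 to 4.94% of T cells and 0.685 to 1.08% of B cells. Without thinning the shares were 38.2, 23.5, 28.9 and 42.2%, which order the libraries differently from their levels. Ifi27l2a, an interferon-induced gene not on the list, was at 913, 924, 231 and 704 CPM and was low under YKL-5-124 alone, with a log2 ratio of -1.78. Free RNA went the other way for Ifi27l2a, at 257, 255, 475 and 971 CPM.

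Genes of transcription factors were also among those that fell. Of 21 measured transcription factor genes, 3 fell under YKL-5-124 and 0 rose, with a median of -0.19, beside 1.3% of all measured genes that fell and 2.42% that rose. Egr1, a growth factor-induced zinc finger protein, was at 489 CPM in control, 603 under anti-PD-1, 188 under YKL-5-124 and 297 in the combination. Jund, a subunit of AP-1, was at 386, 539, 149 and 236 CPM, and its log2 ratio went from -1.13 to -0.45 in cells with at least 1000 UMIs, which ends the call. Cebpb, the C/EBP factor of emergency granulopoiesis, was at 604, 616, 268 and 286 CPM, 0.443 times control under YKL-5-124 (0.316 to 0.630) and 0.473 times in the combination (0.313 to 0.717). All 3 were lower in both libraries given YKL-5-124 than in the other 2. Bcl2a1b, of the anti-apoptotic A1 family whose near-identical copies can share reads, was at 412, 411, 163 and 379 CPM. Cstb, a stefin on another chromosome, was at 476, 257, 184 and 324 CPM, with a log2 ratio of -1.17 under YKL-5-124 that was -0.96 in members with no granule UMI. Of 21 measured NF-kB target and feedback genes, none passed 2-fold, and their median was -0.38 under YKL-5-124 and -0.05 in the combination.

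Cdk7 itself, the target of YKL-5-124, was too low to compare: it was listed at 0 in control and anti-PD-1 and stood at 9.69 CPM under YKL-5-124 and 5.50 in the combination. Of 32 genes of CDK7 complexes and the RNA polymerase II machinery, 1 reached 100 CPM.

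With anti-PD-1, 26 of 1155 genes were at least 2-fold higher than in control (2.25%) and 27 at least 2-fold lower (2.34%). With 68 cells against 76, the intervals were wide. The chemokines Ccl3 and Ccl4, neighbours on chromosome 11 that attract monocytes and T cells, were both past 2-fold upward. Ccl4 was at 219 CPM in control (127 to 350.1), 1283 under anti-PD-1 (1044 to 1561), 202 under YKL-5-124 (165 to 244) and 1006 in the combination (866 to 1163). Ccl3 was at 116, 539, 167 and 533 CPM. Over all members, both were higher in the 2 libraries given the antibody than in the other 2. These UMIs lay in few cells, and the pattern rested on them. Ccl4 was found in 4, 9, 26 and 13 cells, of which 0, 3, 2 and 4 held at least 10 UMIs, and the top cell held 43 of 100 Ccl4 UMIs under anti-PD-1 and 101 of 183 in the combination. Without its top cell, each library read 119, 743, 157 and 455 CPM of Ccl4. Without the top 3 cells of each library, Ccl4 was at 27.1, 188, 121 and 169 CPM. Ccl3 was then at 26.7 CPM in control, 131 under YKL-5-124 and 187 in the combination, with only 3 of its 42 UMIs left under anti-PD-1, which thus stood below YKL-5-124. Among members with no granule UMI, the log2 ratio of Ccl3 under anti-PD-1 to control was 0.71. Without the cells whose barcode was kept in another library, that of Ccl4 in the combination to control was 0.91. In free RNA Ccl4 varied little, at 283, 337, 284 and 348 CPM.

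Class II antigen presentation genes were also above control under anti-PD-1, but their UMIs lay mostly in 3 cells, and 2 members of this library carried B cell markers. Cd74, the class II invariant chain, was at 617 CPM in control, 3041 under anti-PD-1, 712 under YKL-5-124 and 253 in the combination. H2-Aa was at 116, 526, 96.9 and 33.0 CPM and H2-Ab1 at 25.7, 513, 138 and 82.5 CPM. The 3 cells with most Cd74 held 93, 88 and 41 of its 237 UMIs under anti-PD-1, and without them Cd74 was at 221 CPM. In control 36 of 48 Cd74 UMIs lay in 1 cell. Summed B and plasma cell markers stood at 437, 2066, 578 and 225 CPM in the same order of libraries, from 4, 11, 11 and 7 of 12 marker genes. Without the members that carried other cell types' markers, the log2 ratio of Cd74 to control was 0.32 and that of H2-Ab1 1.43. When the cells with the highest doublet scores were removed, 3 of them members of this library, the log2 ratio of Cd74 to control went from 2.21 to -1.34 and that of H2-Ab1 was 0.33.

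Other genes that stood apart under anti-PD-1 came singly. Klf2, a factor of quiescent leukocytes, just missed 2-fold, with a log2 ratio of 0.97, at 322 CPM in control, 680.1 under anti-PD-1, 182 under YKL-5-124 and 209 in the combination. Downward, Rgcc was at 399, 51.3, 180.3 and 209 CPM, Vps37b at 489, 103, 238 and 253 CPM, and Tgm2, a transglutaminase, at 617, 179.6, 291 and 329.9 CPM. These 3 were highest in control and lowest under anti-PD-1. Hspa5, the main chaperone of the endoplasmic reticulum, was at 772, 257, 719 and 577 CPM, and Tnfrsf1a, a receptor of tumour necrosis factor, at 617, 257, 607 and 588 CPM. For both, anti-PD-1 alone stood low. The Isg15 value given above, with a log2 ratio of -1.70 that was -0.77 in cells with at least 1000 UMIs, belongs here too, and no other of the 16 measured interferon-stimulated genes passed 2-fold in this comparison.

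In the combination, 16 of 1155 genes were at least 2-fold higher than in control (1.39%) and 6 at least 2-fold lower (0.519%). The genes upward included some that were also higher in a single-agent library. Stfa1, BC100530, Lcn2 and Lyz2 were also higher under YKL-5-124, though Lyz2 was below 2-fold there. Ccl3 and Ccl4 were also higher under anti-PD-1, but their UMIs lay in few cells, with 101 of 183 Ccl4 UMIs of the combination in 1 cell. Of the 15 measured secondary granule genes, 4 rose (BC100530, Lcn2, Lyz2 and Ngp, the last a gene of the rule) and AA467197 fell, with a median of 0.53, against 0.02 over all genes. BC100530 met the filter only through the libraries given YKL-5-124, so its call is no support here either. Without the top cell of each library the log2 ratio of AA467197 was -0.50. Cd14, Mmp8, Fpr1, Ifi27l2a and Egr1 did not pass 2-fold in the combination.

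Set directly against YKL-5-124, the combination had 4 genes at least 2-fold higher (0.346%) and 8 at least 2-fold lower (0.693%). Wfdc17 was at 3524 CPM in control, 5094 under anti-PD-1, 4316 under YKL-5-124 and 2007 in the combination. The combination stood lowest, at 0.465 times YKL-5-124 (0.415 to 0.520) and 0.394 times anti-PD-1 (0.341 to 0.455). Wfdc17 was found in 55.3, 60.3, 56.6 and 34.1% of members after thinning to 500 UMIs, and in 63.2, 75, 73.4 and 43.7% before. B and T cells thinned alike gave 0.272 to 2.99%. Tagln2, an actin-binding protein, was at 283, 167, 489 and 176 CPM and Asprv1, an aspartic protease, at 296, 321, 465 and 187 CPM, both lower in the combination than under YKL-5-124. Bcl2a1b was 2.33 times higher than under YKL-5-124 (1.67 to 3.24), a log2 ratio of 1.01 that was 0.71 in members with no granule UMI. Set against anti-PD-1, the combination had 34 genes at least 2-fold higher (2.94%) and 17 at least 2-fold lower (1.47%). The former included Stfa1, BC100530, Isg15, Irf7, the interferon regulatory factor with a log2 ratio of 1.17, and Mgst1, a membrane glutathione transferase at 862, 590.2, 1728 and 1661 CPM.

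**Figure D5:**
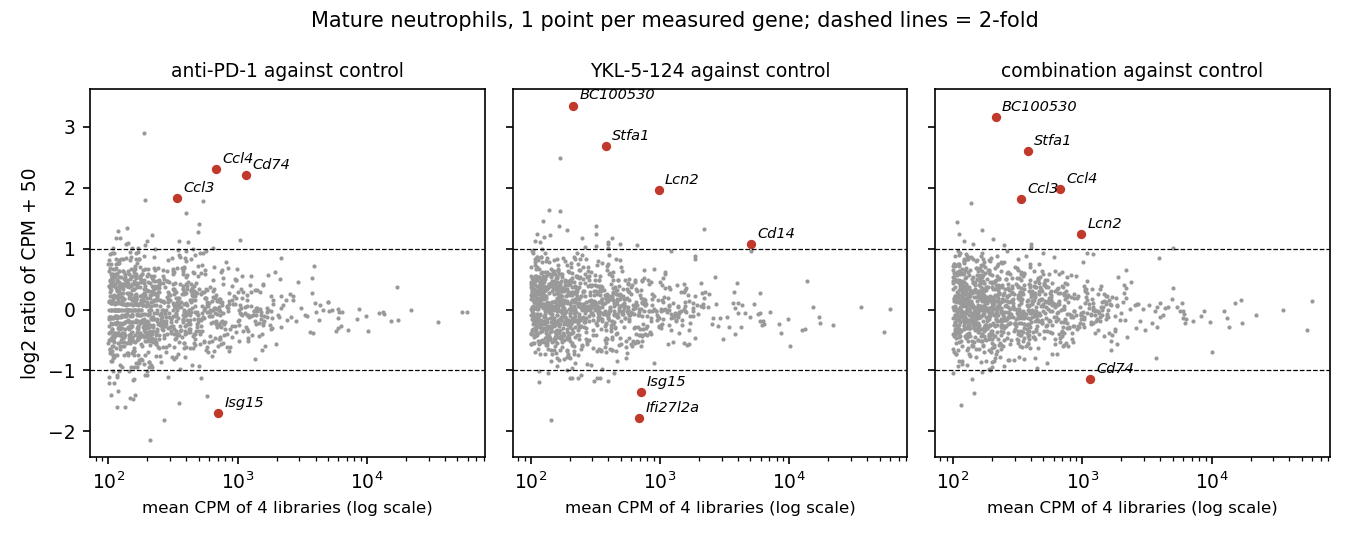
Log2 ratios of CPM + 50 against the mean CPM of the 4 libraries (log scale), 1 point per measured gene, for comparisons between libraries of mature neutrophils. Dashed lines mark 2-fold. Most of the 1155 genes lie between the lines, and Stfa1, BC100530 and Lcn2 stand above them under YKL-5-124.

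Several functional groups of neutrophil genes had no member past 2-fold. Of 9 measured adhesion genes, none passed it against control in any treated library, with medians of -0.27 under anti-PD-1, -0.48 under YKL-5-124 and -0.37 in the combination. Itgam, the integrin chain CD11b, was at 244, 167, 153 and 132 CPM, highest in control and below 2-fold. The 5 measured subunits of the NADPH oxidase, which makes superoxide, had medians of -0.11, 0.06 and -0.01, and 11 glycolysis genes medians of -0.18, 0.42 and 0.15. Of 9 measured genes tied to suppression of T cells none passed 2-fold against control, and Arg1, arginase 1, had 1 UMI in all members together, at 1.94 CPM under YKL-5-124. Cd274, which encodes the PD-1 ligand PD-L1, was at 12.9, 77.0, 17.4 and 16.5 CPM. After thinning it was found in 1.32, 2.94, 0.571 and 0% of members. This was not above the 0.323 to 2.74% of B and T cells by more than counting error. Cd274 was thus too low to compare between libraries, and whether its UMIs were background was not tested. Siglecf, a marker of long-lived tumour neutrophils in mouse lung, was at 25.7, 0, 5.82 and 0 CPM. Of 11 measured genes of that neutrophil state, 2 rose under anti-PD-1, which were Ccl3 and Ccl4, beside 2.25% of all measured genes, and the median was -0.28.

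Single members varied in actin, chemokines and secreted granule proteins. Over members thinned to 500 UMIs, the median Fano factor (variance divided by mean, about 1 for pure counting) of 1155 genes was 1.05, and 43 genes were above 2. Within single libraries, Actb had 10.1 to 11.4, Retnlg 6.66 to 9.95, S100a8 6.28 to 7.85 and Cxcl2 4.52 to 8.08. Ccl4, which was highest at 14.0 over all members, had 2.28, 13.5, 3.66 and 22.4 by library, and Cd74 had 4.74, 11.6, 6.06 and 1.01. Over all members BC100530 had 4.28 and Stfa1 3.61. Of 19110 pairs among 196 genes, 8 had a Pearson correlation across cells of at least 0.25 in every library. The 68 to 350 cells of a library share its depth range and free RNA, so these are descriptions. S100a8 with S100a9 gave 0.60 to 0.72 over the 4 libraries, and S100a8 with Retnlg 0.46 to 0.53. Actb, cytoplasmic actin, with the kinase gene Pim1 gave 0.56 to 0.63, compared with 0.12 to 0.41 in monocytes and 0.09 to 0.25 in T cells. Cxcl2 with Nfkbia gave 0.29 to 0.44, compared with 0.12 to 0.24 in monocytes. After thinning, Pim1 averaged 1.39 to 2.15 UMIs in members, 0.297 to 0.425 in monocytes and 0.152 to 0.225 in T cells. Cxcl2 averaged 8.35 to 9.29 UMIs in members and 0.316 to 0.561 in monocytes. With counts this unequal, the strength of these correlations cannot be compared between the classes. The pairs thus comprised a calprotectin and granule side with Lyz2 and Retnlg, an inflammatory side with Cxcl2, Il1b and Nfkbia, and the pair of Actb and Pim1.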

How the data were processed

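Single-cell 3' RNA libraries of 4 groups were used, 1 per group. The authors deposited raw UMI counts per gene and barcode, whole numbers not restricted to cells. The submitters' processing notes name the tools bcl2fastq and Cell Ranger, the latter at software version 3.0.0 per the file headers. The notes name hg19, whereas the gene IDs are mouse Ensembl IDs, and which build lies behind the counts is not stated in the sources used here. Of the IDs, 30934 were found in GENCODE M21 (GRCm38) and 119 were not. Libraries held 17329001 to 22950622 UMIs.

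Members' UMIs were summed per library and converted to CPM. Levels have exact Poisson and ratios exact conditional binomial intervals. Genes were compared at a mean of at least 100 CPM with a pseudocount of 50 CPM, and called at 2-fold. Symbols standing for several IDs (35) were left out. Because each group has 1 library, no test and no p-value was made. For shares of cells with a UMI, cells were thinned to 500 UMIs, which every member had. Doublets were scored with Scrublet. Members among the highest scores were kept in the main values, and were 1, 3, 7 and 0 of 97, 60, 138 and 131 cells removed in an alternative. Free RNA was read from barcodes with 10 to 100 UMIs.

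Members, gene lists and tests were chosen with earlier results of these data known. Named genes are the 8 highest and 8 lowest ratios to control per treated library and the 5 highest and 5 lowest for the combination against each single agent, with at least 30 UMIs in both libraries together, leaving out other cell types' markers and mitochondrial, ribosomal, sex-linked, haemoglobin and antigen receptor genes. Up to 5 members per list, the 30 most abundant and 15 most variable genes, and the 12 that differ most each way from like cells could also be named. Some named genes are left out for length. The class II genes, the granule steps and the stefin sum were singled out after their values were seen. The ratio step was tested on simulated counts of YKL-5-124 against control over 1155 genes. There 0.209% of unchanged genes, 28% of 2-fold and 91% of 4-fold changed genes were called, so changes near 2-fold are often missed. The simulated counts were Poisson draws, with no variation between cells or between libraries. The 0.209% thus covers counting error alone and does not give the rate of false calls in these data. Computations used Scanpy 1.11.5 and Biopython 1.88 on Python 3.11.15, with SciPy 1.17.1, pandas 2.3.3, Matplotlib 3.10.9 and NumPy 2.4.6.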

Additional observations from a re-analysis of the deposited data

Results flagged for a closer look

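In 4 results over all members, the library difference for an agent given alone and that for the same agent added to the other had opposite directions. These differences were not tested, because each group is 1 library. The share of mature neutrophils was 1.14 times control under anti-PD-1 but 0.396 times YKL-5-124 when the antibody was added to it. The former had an interval of 0.808 to 1.60 and was 0.972 and 0.954 under other limits for a member. Cd74 had a log2 ratio of 2.21 for anti-PD-1 against control and of -1.33 for the combination against YKL-5-124, and few cells held its UMIs. With doublets removed the former was -1.34, so the directions were no longer opposite. H2-Ab1 had 1.31 for YKL-5-124 against control and -2.09 for the combination against anti-PD-1, and the 3 cells with most of it held 16, 13 and 9 of its 40 UMIs under anti-PD-1. With doublets removed the latter was 0.74. The former was not computed with doublets removed, so whether the directions stayed opposite is not known. Isg15 had -1.36 for YKL-5-124 against control and 1.11 for the combination against anti-PD-1, with UMIs in 29, 16, 101 and 57 cells of the 4 libraries, from control to the combination. In cells with at least 1000 UMIs the former was -0.86.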

How the results depend on the processing

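No paired analysis was possible because each group has 1 library. The ratio of shares of mature neutrophils for anti-PD-1 against control was below 1 with cells of at least 250 UMIs and 150 genes (0.972) and with at least 4 marker UMIs (0.954). With at least 1000 UMIs per cell, these ratios were 7.19 (YKL-5-124 against control), 2.81 (combination against control) and 1.95 (combination against anti-PD-1). With the granule limit as under 1% of UMIs, the combination was at 0.316 of YKL-5-124. Counts past 2-fold moved more. Genes higher under YKL-5-124, 28 in the report, were 51 at a pseudocount of 10, 16 at 200 CPM, 65 with no filter and 43 at 1000 UMIs, and genes lower, 15, were 26 at a pseudocount of 10 and 24 with no filter. For anti-PD-1, 26 higher became 59 at a pseudocount of 10, 77 at 50 CPM, 13 at 200 CPM, 176 with no filter, 78 at 1000 UMIs, and 17 both with doublets removed and with members carrying other cell types' markers left out. Its 27 lower became 59, 66, 7, 121 and 54 under the first 5. For the combination, 16 higher became 45, 43, 10, 67 and 39, and 6 lower became 21, 17, 1, 37 and 19 under the same 5. With doublets removed, anti-PD-1 against control gave -1.34 for Cd74, -0.97 for H2-Aa and -0.97 for the class II median, and the combination against anti-PD-1 gave 0.16 for Cd74, 0.064 for H2-Aa and 0.74 for H2-Ab1. Without the top cell, Cd74 was 0.45 in the combination against control. Of 68 named gene comparisons, 58 kept their sign under every alternative and 31 stayed past 2-fold. Leaving out members with a granule UMI, members with other cell types' markers, cells whose barcode was kept in another library, or the top cell was added after the data were seen. The 76 control and 68 anti-PD-1 cells limit what could be read below about 100 CPM.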

Other observations

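Actin showed a wide range among single members. Actb stood at 15703 CPM in control, 20389 under anti-PD-1, 14346 under YKL-5-124 and 17419 in the combination, and of 28 measured actin and cytoskeleton genes only 1 passed 2-fold in any treated library against control, upward under YKL-5-124.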
